A study of Mus musculus with 6 samples.

Results

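The CCAAT/enhancer-binding proteins (C/EBPs) were followed in RNA sequencing of granulosa cells from mouse ovaries. Their 6 genes, Cebpa, Cebpb, Cebpd, Cebpe, Cebpg and Cebpz, were taken by gene symbol from a deposited table of 55860 genes, and each symbol matched 1 row. The libraries came from Il22r+/+ mice (3 libraries) and Il22r-/- mice (3 libraries), which lack the interleukin-22 receptor by label. The series is titled as work on interleukin-22, STAT3 signalling and ovulation, and its only comparison is between these genotypes. Cells of both genotypes were isolated on a density gradient, kept for 12 h in serum-supplemented DMEM-F12 with penicillin-streptomycin, and given no other agent by label. The age, strain, hormone priming and deleted exon were not given in the sources used here, nor whether a library came from 1 mouse or from pooled mice.

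C/EBPs are transcription factors of the basic leucine zipper (bZIP) class, which bind DNA as dimers with one another or with other bZIP proteins. Cebpa and Cebpb are induced in granulosa cells by the luteinizing hormone surge, and mice that lack both in these cells ovulate poorly and form few corpora lutea. Cebpb and Cebpd are also textbook targets of interleukin-6-type cytokines acting through STAT3. Cebpz carries the family's name but not its zipper, and is a CCAAT-binding protein whose yeast relative acts in ribosome assembly.

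Promoter sequence was matched for 3 members, Cebpa, Cebpb and Cebpg, in the RefSeq promoter table (build GRCm38.p6). The 250 bases before each start site are shown for these 3, the only members with an entry. Of them, Cebpa and Cebpb moved in opposite directions and Cebpg was not called. Capitals mark matches, on either strand, to 5 motifs: TTGCG (the core of a C/EBP site), TGACG (the core of a cyclic AMP response element), CCAAT, TTCNNNGAA (a STAT element) and TATAAA. No match overlapped another.
Cebpa, chr7:35119043-35119292, plus strand: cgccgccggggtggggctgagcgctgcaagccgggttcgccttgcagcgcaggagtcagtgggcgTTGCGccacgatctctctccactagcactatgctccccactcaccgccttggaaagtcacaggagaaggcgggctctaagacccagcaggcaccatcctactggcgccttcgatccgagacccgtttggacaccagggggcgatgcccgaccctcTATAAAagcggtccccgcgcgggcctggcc
Cebpb, chr2:167688665-167688914, plus strand: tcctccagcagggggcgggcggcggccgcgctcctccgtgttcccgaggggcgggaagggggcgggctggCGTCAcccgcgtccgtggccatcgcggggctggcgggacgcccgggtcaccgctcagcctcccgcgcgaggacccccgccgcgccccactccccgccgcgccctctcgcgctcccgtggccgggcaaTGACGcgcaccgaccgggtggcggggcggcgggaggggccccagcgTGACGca
Cebpg, chr7:35056567-35056816, minus strand: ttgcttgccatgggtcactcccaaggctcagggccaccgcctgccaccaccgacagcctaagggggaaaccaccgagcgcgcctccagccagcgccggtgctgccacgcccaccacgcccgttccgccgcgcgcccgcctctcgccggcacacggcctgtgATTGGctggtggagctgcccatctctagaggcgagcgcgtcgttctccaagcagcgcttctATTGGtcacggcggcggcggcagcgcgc

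The search window ran on for 50 bases past each start, 300 bases in all. In Cebpa it held 1 TTGCG, 185 to 181 bases upstream, and TATAAA at 30 to 25 bases upstream. In Cebpb it held TGACG 3 times, on the reverse strand at 180 to 176 bases upstream and on the forward strand at 53 to 49 and at 7 to 3 bases upstream. TATAAA lay downstream of the annotated Cebpb start, at bases 22 to 27. In Cebpg it held CCAAT 2 times, both on the reverse strand, at 89 to 85 and 28 to 24 bases upstream. No STAT element was matched in these 3 windows, which says only that its letters were not there. Of all 32851 windows of this length in the table, 17.4% held TTGCG, 20.8% TGACG, 37.4% CCAAT, 8.3% TTCNNNGAA and 13.6% TATAAA. GC content was 67.3% in the Cebpa window, 80.7% in Cebpb and 71.7% in Cebpg, against a median of 52.7% over all windows. Cebpd, Cebpe and Cebpz had no entry.

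The libraries held 17.43 to 17.7 M counted reads (M, mega-reads) in Il22r+/+ and 14.95 to 18.12 M in Il22r-/-. Il22ra1, taken as the targeted receptor gene, gave 1, 5 and 4 reads in the Il22r+/+ libraries and 5, 2 and 0 in those of Il22r-/-, too few to check the labels. The cells carried granulosa transcripts: the summed level of 13 granulosa markers was 7620 to 8450 CPM in Il22r+/+ and 7420 to 8280 CPM in Il22r-/-. Most of the sum was Inha (3200 and 2600 CPM), Gja1 (2150 and 1460 CPM) and Inhba (1760 and 2850 CPM), and single markers were not level. Of 11 tested, 4 were called higher in Il22r-/-, 3 lower and 4 were not called (63.6% called against 45.7% of all tested genes). Fshr, among the higher calls, had 13 reads over the Il22r+/+ libraries and 313 over those of Il22r-/-. It passed the filter on low counts only through Il22r-/-, so nothing is read from its call. Cyp19a1 and Amh were too low to test. CPM are counts per mega-read of the library after TMM scaling. The first principal component of the 500 most variable genes held 89.35% of their variance and separated the genotypes, and the second held 4.21% and set Il22r-/- replicate 3 (14.5) apart from the other libraries (-8.93 to 1.22). Of 15227 genes with enough reads to test, 6962 were called, 45.7% of them, at a Benjamini-Hochberg adjusted p under 0.05 in the edgeR quasi-likelihood test. Higher calls in Il22r-/- made up 23.6% of the tested genes, and lower calls 22.1%. The libraries of the genotypes did not overlap in CPM for 56% of tested genes.

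Cebpb was the most abundant C/EBP in both genotypes, and it fell in Il22r-/- cells together with Cebpd, while Cebpa and Cebpz rose and Cebpg was not called. Thus 5 of the 6 genes passed the filter on low counts, 2 were called higher, 2 were called lower, and the libraries of 4 did not overlap. Of all tested genes 45.7% were called (23.6% higher and 22.1% lower), and the libraries of 56% did not overlap. The counts of members are therefore given as a description. Cebpe, at 7 reads over all libraries, did not pass the filter. In bulk RNA, fewer cells of a type and less RNA per cell cannot be told apart, and this holds for each difference given here.

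Cebpb (ENSMUSG00000056501) encodes a C/EBP induced in ovulating follicles, and it is a gene of a single exon on chromosome 2, plus strand, from 167688915 to 167690418 (mm10). Its reads numbered 4737, 3901 and 5446 in Il22r+/+ and 1734, 1819 and 1698 in Il22r-/-, which came to 277, 232 and 322 CPM against 90.9, 96.9 and 111 CPM. Every Il22r-/- library lay far below the lowest Il22r+/+ library. The means were 277 ± 44.8 and 99.7 ± 10.5 CPM (SD, n = 3 each), a 2.78-fold lower level. The log2 difference was -1.47 ± 0.12 (SE, 95% interval -1.75 to -1.2, edgeR adjusted p = 1.07e-05), larger in size than that of 83.4% of called genes. The Cebpb messenger RNA is translated into activating and inhibitory proteins from different start codons, which read counts per gene do not separate.

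Cebpa (ENSMUSG00000034957), known for driving differentiation and halting the cell cycle in fat, liver and myeloid cells, moved the opposite way. It lies on chromosome 7, plus strand, from 35119293 to 35121928. Its libraries gave 427, 413 and 417 reads for Il22r+/+ and 1022, 662 and 692 for Il22r-/-, or 24.9, 24.6 and 24.7 CPM against 53.6, 35.3 and 45.4 CPM. The Il22r+/+ libraries were almost level with one another, whereas the Il22r-/- libraries were spread widely, all above them. The means were 24.7 ± 0.176 and 44.8 ± 9.18 CPM (SD, n = 3 each), a 1.81-fold higher level. The log2 difference was 0.85 ± 0.14 (SE, 95% interval 0.55 to 1.16, edgeR adjusted p = 0.000604). It ranged from 0.70 without Il22r-/- replicate 1 to 0.99 without Il22r-/- replicate 2, and stayed called in both.

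Cebpd (ENSMUSG00000071637), an acute-phase C/EBP quickly induced by cytokines, is a single exon on chromosome 16, plus strand, from 15887286 to 15891031. The 3 Il22r+/+ libraries held 273, 287 and 265 reads of it and the 3 Il22r-/- libraries 151, 154 and 140, or 15.9, 17.1 and 15.7 CPM against 7.92, 8.2 and 9.18 CPM. The groups did not overlap. The means were 16.2 ± 0.76 and 8.44 ± 0.663 CPM (SD, n = 3 each), a 1.93-fold lower level, with a log2 difference of -0.95 ± 0.12 (SE, edgeR adjusted p = 0.000156). Its direction matched that of Cebpb, and the ratio of their FPKM (fragments per kilobase per mega-read) was 42.8 ± 8.68 in Il22r+/+ and 29.4 ± 0.803 in Il22r-/- (SD, n = 3 each). That ratio was lower in each Il22r-/- library (28.6 to 30.2) than in any Il22r+/+ library (33.9 to 51.2).

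Cebpe (ENSMUSG00000052435), a C/EBP of maturing granulocytes, lies on chromosome 14, minus strand, from 54710360 to 54712174. Its reads numbered 4, 0 and 2 in the Il22r+/+ libraries and 0, 0 and 1 in the Il22r-/- libraries. Pooled, these were 6 and 1 reads, 0.114 and 0.0195 CPM, beside a level of 0.057 and 0.0586 CPM that 3 reads of the pooled total would give. The ratio of Il22r+/+ to Il22r-/- was 5.83 with an exact 95% interval of 0.708 to 268, which covers counting error only, so no difference was detectable at this depth.

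Cebpg (ENSMUSG00000056216), a short C/EBP with the zipper but no activation domain of its own, pairs with other C/EBPs and with ATF4. It lies on chromosome 7, minus strand, from 35046422 to 35056573. It had 45.3, 50.8 and 47.6 CPM in Il22r+/+ and 52.5, 49.2 and 45.1 CPM in Il22r-/-, and the groups overlapped throughout. The means were 47.9 ± 2.8 and 48.9 ± 3.72 CPM (SD, n = 3 each), and the log2 difference was 0.03 ± 0.09 (SE, 95% interval -0.16 to 0.22, edgeR adjusted p = 0.793). The interval does not reach the size of change of any of the 4 called members.

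Cebpz (ENSMUSG00000024081), on chromosome 17, minus strand, from 78919006 to 78937066, carried no bZIP class in the deposited table, whereas the other 5 did. It had 40.1, 42.8 and 37.4 CPM in Il22r+/+ and 60.6, 57.9 and 61.1 CPM in Il22r-/-. The Il22r-/- libraries lay close together and above all Il22r+/+ libraries. The means were 40.1 ± 2.71 and 59.8 ± 1.72 CPM (SD, n = 3 each), a 1.49-fold higher level with a log2 difference of 0.58 ± 0.08 (SE, edgeR adjusted p = 0.000214).

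**Figure D1:**
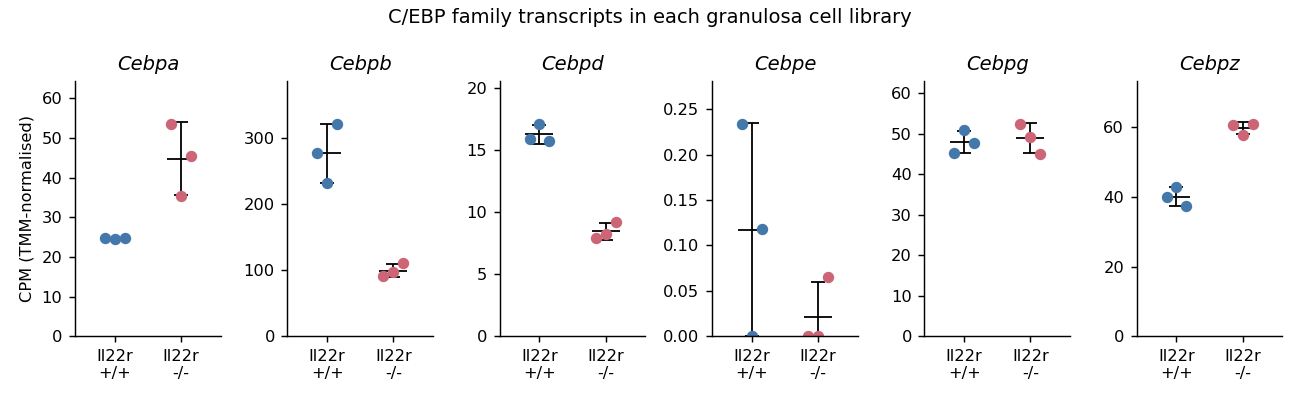
Level of the 6 C/EBP genes in CPM in each library (dots) by genotype, with the mean as a line and the SD as a bar, drawn from 0 upwards; each panel has its own linear axis. Cebpb lies at 90.9 to 111 CPM in Il22r-/- against 232 to 322 CPM in Il22r+/+, Cebpa at 35.3 to 53.6 against 24.6 to 24.9 CPM, and the libraries of Cebpg overlap.

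**Figure D2:**
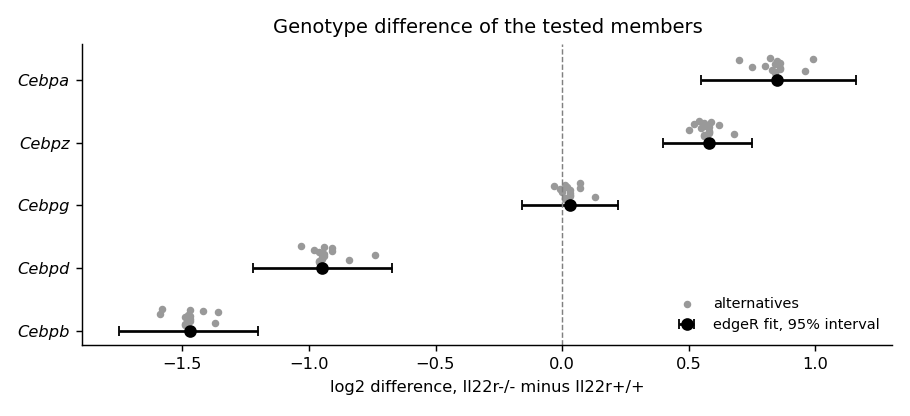
Log2 difference of each tested C/EBP gene, Il22r-/- minus Il22r+/+, from the edgeR fit with its 95% interval, and the values under 15 alternative settings. Cebpb lies between -1.59 and -1.36 and Cebpa between 0.70 and 0.99 over the alternatives, while Cebpg lies on both sides of 0, from -0.03 to 0.13.

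Levels per length were compared with the deposited FPKM. Among the 5 bZIP members, Cebpb was at 189, 159 and 221 FPKM in Il22r+/+ and 60.6, 65.1 and 75.5 FPKM in Il22r-/-. Cebpa was at 9.74, 9.59 and 9.64 FPKM and then 20.4, 13.5 and 17.6 FPKM. Cebpg held 8.77 ± 0.498 and 8.79 ± 0.592 FPKM, and Cebpd 4.46 ± 0.2 and 2.28 ± 0.199 FPKM (SD, n = 3 each). By these values the order in Il22r+/+ was Cebpb, then Cebpa and Cebpg near each other (ratio 1.03 to 1.17), then Cebpd, and in Il22r-/- the ratio of Cebpa to Cebpg was 1.53 to 2.18. The place of Cebpg depends on the length taken for it: with the shortest coding transcript in place of the gene length, a choice made after seeing the data, the ratio of Cebpa to Cebpg was 0.205 to 0.233 in Il22r+/+ and 0.303 to 0.432 in Il22r-/-. The order of this pair then turns, with Cebpg above Cebpa in all 6 libraries.

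The summed FPKM of the 5 bZIP members was 213 ± 30.6 in Il22r+/+ and 95.3 ± 7.5 in Il22r-/- (SD, n = 3 each). Cebpb made up 89.3, 87.1 and 90.6% of it in Il22r+/+ and 65.5, 72.6 and 72.7% in Il22r-/-. Cebpa made up 4.59, 5.26 and 3.96%, then 22, 15.1 and 16.9%. Both shares were apart between the genotypes in every library. The FPKM ratio of Cebpb to Cebpa was 19.4, 16.6 and 22.9 in Il22r+/+ and 2.97, 4.82 and 4.3 in Il22r-/-. The share of Cebpg was 4.2 ± 0.794% and 9.29 ± 1.23%, and that of Cebpd 2.14 ± 0.405% and 2.39 ± 0.0896% (SD, n = 3 each). These shares are descriptions of transcript levels and carry no test. They too depend on the length: with the shortest coding transcript, Cebpb held 72.7% and 46.4%, Cebpg 21% and 37.5%, and Cebpa 4.57% and 14.5%. Under either length the share of Cebpb was lower, and that of Cebpa higher, in Il22r-/-.

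**Figure D3:**
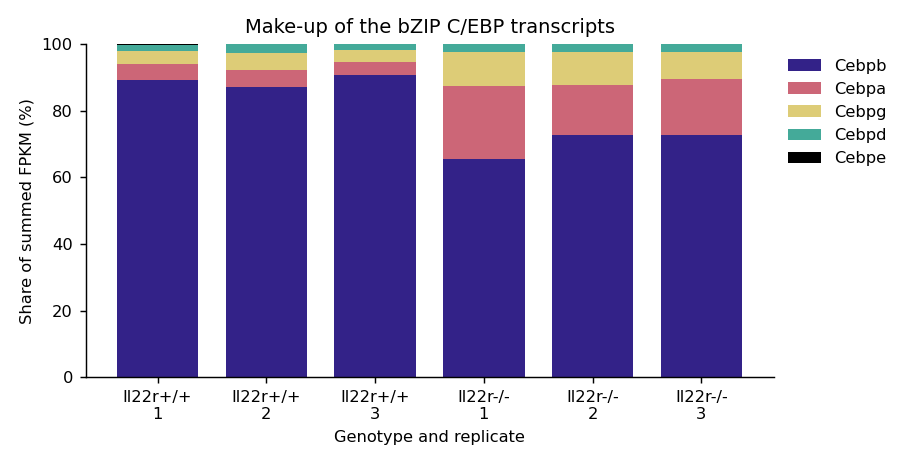
Share of each bZIP C/EBP gene in their summed FPKM, in percent, for each of the 6 libraries, as stacked bars. Cebpb holds 87.1 to 90.6% in the Il22r+/+ libraries and 65.5 to 72.7% in the Il22r-/- libraries, and Cebpa 3.96 to 5.26% and 15.1 to 22%.

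The deposited table assigned 53 genes to the bZIP class, a grouping taken up after the files were seen, and Cebpb had the highest mean FPKM of them in Il22r+/+ and stood at rank 4 in Il22r-/-. Atf4, the effector of the integrated stress response, was at 146 and 130 FPKM, Nfe2l1 at 118 and 78.6 FPKM and Fosl2 at 88.8 and 70.4 FPKM, so all 3 ranked above Cebpb in Il22r-/-. Cebpa stood at rank 25 and then 18, Cebpg at rank 26 in both, Cebpd at rank 32 and then 37, and Cebpe at rank 47 and then 51. Of the 45 genes of the class that were tested, 8 rose and 20 fell (62.2% called, median log2 difference -0.18), against 45.7% called and a median of 0.03 over all tested genes.

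**Figure D4:**
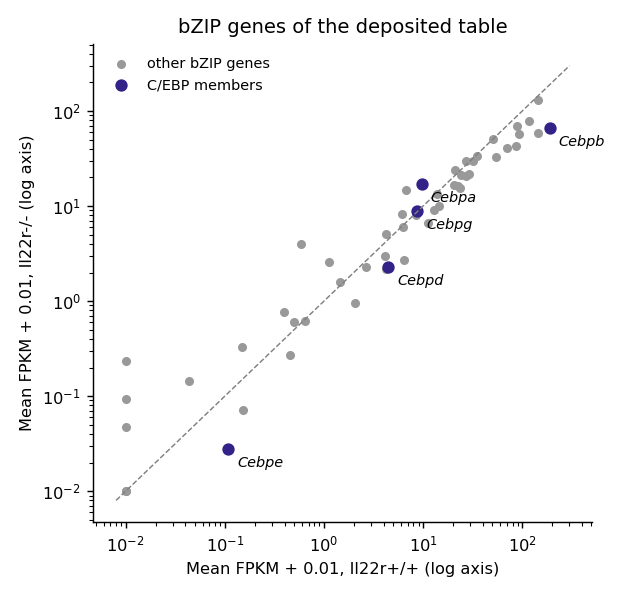
Mean FPKM of the 53 bZIP genes in Il22r+/+ (horizontal) and Il22r-/- (vertical), both on log axes after adding 0.01, with the C/EBP genes named and the line of equal levels drawn. Cebpb (190 and 67.1 FPKM) lies below the line and Cebpa (9.66 and 17.2 FPKM) above it.

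Some members share exons with a neighbour in GENCODE M21, and the strand setting of the counting was not given in the sources used here. For Cebpb, 20.7% of its exon length (312 bases) overlaps Tmem189 on the opposite strand, and Tmem189 also fell, from 65.3 to 40.3 CPM (log2 difference -0.70 ± 0.08, SE). For Cebpd, 15% (562 bases) overlaps Spidr on the opposite strand, which rose from 9.33 to 13.2 CPM (log2 difference 0.50 ± 0.14, SE), opposite to Cebpd. For Cebpz, 3.7% overlaps Cebpzos (4.71 and 3.96 CPM, not called). For Cebpa, Cebpg and their overlapping genes the largest overlap was 1.9%. Depending on the counting settings, reads in shared stretches may be counted for either gene or for neither, so the values of Cebpb and Cebpd are uncertain by that part. Cebpa and Cebpg are neighbours on chromosome 7, 62.7 kb apart on opposite strands with no gene of more than 1 read between them. Only Cebpa of this pair was called.

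The genes whose pattern over the 6 libraries lay nearest to each member were found among 10532 genes by the root mean square difference of centred log2 CPM. For Cebpb these were Plau (0.1), which encodes urokinase and stood at 1500 and 538 CPM, Soat1 (0.105), a cholesterol-esterifying enzyme, at 646 and 251 CPM, and Cdh11 (0.11), a cadherin, at 16.6 and 5.78 CPM. For Cebpd they were Mast1 (0.0343), Hykk (0.0423) and Cdc42bpa (0.0443). For Cebpa they were Lrrn1 (0.0681), the homeobox gene Hoxd8 (0.0784) and Smco4 (0.0842). For Cebpg they were 1110004F10Rik (0.0229), Golga1 (0.0315) and Rbm7 (0.0315), and for Cebpz Gart (0.0332), an enzyme of purine synthesis, Sfxn2 (0.0338) and Jarid2 (0.0344). With 6 libraries in 2 groups this likeness mostly restates the difference between genotypes and the spread within them.

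Dimer partners of C/EBPs and other bZIP relatives moved in both directions. Of 11 listed genes 7 were tested, 2 rose, 3 fell and 2 were not called (71.4% called against 45.7% of all tested genes, median log2 difference -0.14). Atf5, a bZIP factor of the stress response, fell from 279, 295 and 273 CPM to 117, 120 and 112 CPM (log2 difference -1.28 ± 0.07, SE, edgeR adjusted p = 6.95e-07). Ddit3, or CHOP, which forms dimers with C/EBPs that cannot bind classical C/EBP sites, fell from 24.1 ± 1.85 to 17.0 ± 2.08 CPM (SD, n = 3 each, log2 difference -0.50 ± 0.12, edgeR adjusted p = 0.00594). Dbp, a clock-driven relative, fell from 12.3 to 6.5 CPM (log2 difference -0.92 ± 0.20, SE). Nfil3, a repressor that binds the same kind of site as Dbp, rose from 12.6, 13.1 and 14.0 CPM to 30.7, 27.4 and 31.5 CPM (log2 difference 1.17 ± 0.11, SE, edgeR adjusted p = 1.24e-05). Atf3, an early stress-response factor below the mean level set for naming and chosen after its value was seen, rose from 29, 50 and 40 reads to 110, 105 and 76 reads (log2 difference 1.22 ± 0.24, SE). Atf4 stood at 335 ± 27.7 and 303 ± 8.66 CPM (SD, n = 3 each) and was not called (edgeR adjusted p = 0.184). For this list the higher calls numbered 4 without a filter on low counts.

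Among 22 listed regulators of C/EBP expression or activity, 21 were tested, 3 rose, 5 fell and 13 were not called (38.1% called against 45.7% of all tested genes, median -0.06). Celf1 was counted at 0 reads in all 6 libraries, and whether this comes from its expression or from the counting was not tested. On the cytokine side, Stat3, which binds the Cebpb and Cebpd genes in other cells, fell from 262, 237 and 254 CPM to 127, 136 and 138 CPM (log2 difference -0.91 ± 0.08, SE, edgeR adjusted p = 7.53e-06). Socs3, its feedback inhibitor, fell from 32.1, 25.7 and 34 CPM to 12.7, 11.0 and 12.7 CPM (log2 difference -1.34 ± 0.13, SE). Among kinases that phosphorylate C/EBP beta, Mapk3 (ERK1) fell from 273 to 182 CPM (log2 difference -0.58 ± 0.08, SE). Rps6ka1, or RSK1, rose from 17.3 to 28 CPM (log2 difference 0.69 ± 0.12, SE). Trib3, a pseudokinase of the family that brings C/EBP alpha to the ubiquitin ligase Cop1, fell from 18 to 12.6 CPM (log2 difference -0.52). Trib1 and Trib2 of the same family were not called (log2 differences of 0.04 and -0.31). Cop1 itself rose from 79.8 to 97.7 CPM (edgeR adjusted p = 0.0334), a call that was lost in 9 of 15 alternatives (adjusted p up to 0.144). The fall of Il6st, the signalling chain of interleukin-6-type receptors, was from 151 to 122 CPM (log2 difference -0.31, edgeR adjusted p = 0.0134). Creb1, which drives Cebpb through cyclic AMP response elements, rose from 55.7 to 68.2 CPM (log2 difference 0.29). Leaving out Il22r-/- replicate 3 brought the lower calls of this list to 10.

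Of 26 genes known as C/EBP targets in various tissues, 17 were tested, 3 rose, 7 fell and 7 were not called (58.8% called against 45.7% of all tested genes, median -0.33). Prlr, the prolactin receptor of luteinizing cells, rose from 16.9, 20 and 18.2 CPM to 53.6, 46.8 and 49.9 CPM (log2 difference 1.45 ± 0.10, SE, edgeR adjusted p = 1.91e-06). Nr4a1, an orphan nuclear receptor, rose from 32.7 to 44.1 CPM (edgeR adjusted p = 0.0165) and lost its call in 5 of 15 alternatives (adjusted p up to 0.0743). Star, which delivers cholesterol to mitochondria, fell from 227, 194 and 250 CPM to 108, 109 and 78.4 CPM (log2 difference -1.19 ± 0.14, SE, edgeR adjusted p = 0.000133). Igf1 fell from 938, 1010 and 857 CPM to 368, 531 and 581 CPM (log2 difference -0.92 ± 0.16, SE), with Il22r-/- replicate 1 the lowest. Ptgs2, the prostaglandin synthase of ovulation, fell from 157, 140 and 147 CPM to 63.8, 94.4 and 112 CPM (log2 difference -0.72 ± 0.18, SE, edgeR adjusted p = 0.0133), again lowest in Il22r-/- replicate 1. The other called genes were chosen after their values were seen. Haptoglobin (Hp), an acute-phase gene, and Il6, a cytokine gene, fell from 189 to 12 reads and from 99 to 14 reads over 3 libraries each (log2 differences -4.01 ± 0.41 and -2.85 ± 0.45, SE). Ptges, a prostaglandin E synthase, fell from 221 to 159 CPM and Trib3 as given above. Fabp4, a lipid carrier of fat cells and macrophages, rose from 10 to 84 reads (log2 difference 2.97 ± 0.67, SE). It passed the filter only through Il22r-/- (8, 2 and 0 reads in Il22r+/+ against 21, 37 and 26). Hp (4, 7 and 1 reads in Il22r-/-) and Il6 (5, 5 and 4 reads) passed only through Il22r+/+. The calls of Fabp4, Hp and Il6 stand in the counts of this list, but nothing is read from them. The higher calls of this list numbered 5 without a filter on low counts and 6 without Il22r-/- replicate 3.

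The genes of ovulation and luteinization, the processes for which Cebpa and Cebpb are known in the ovary, moved in both directions. Of 34 listed, 27 were tested, 10 rose, 11 fell and 6 were not called (77.8% called against 45.7% of all tested genes, median -0.24). These counts include Pgr and Il6. Pgr (1, 2 and 4 reads in Il22r+/+ against 30, 28 and 23) passed the filter only through Il22r-/-. Il6 passed only through Il22r+/+, as given above. Nothing is read from the calls of Pgr and Il6. Vcan, a proteoglycan of the expanding cumulus, rose from 5.08, 4.71 and 4.08 CPM to 40.3, 49.2 and 60.2 CPM (log2 difference 3.43 ± 0.17, SE, edgeR adjusted p = 3.19e-07). Cyp11a1 and Hsd3b1, enzymes of progesterone synthesis, rose from 645 to 1620 CPM and from 560 to 1350 CPM, with log2 differences of 1.33 ± 0.12 and 1.27 ± 0.18 (SE). They rose while Star, which supplies the same pathway, fell. Cdkn1a, the cell cycle inhibitor p21, fell from 565, 577 and 549 CPM to 155, 203 and 168 CPM (log2 difference -1.68 ± 0.10, SE, edgeR adjusted p = 1.14e-06). Btc, an EGF-like ligand, fell from 8.6 to 2.98 CPM (log2 difference -1.52 ± 0.18, SE).

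Most of the listed genes that act in ribosome assembly, as the yeast relative of Cebpz does, were higher in Il22r-/-. All 16 listed genes were tested, 12 rose, 0 fell and 4 were not called (75% called, all higher, against 23.6% of all tested genes called higher; median 0.44 against 0.03). In the edgeR fit 0 of them were lower at an unadjusted p under 0.05 either, DESeq2 and limma-voom each called 0 lower, and the edgeR fit without Il22r-/- replicate 3 called 1 lower. With all 6 libraries, Bop1 alone of the 16 had a log2 difference below 0 (-0.18, not called). Dkc1, the pseudouridine synthase of box H/ACA particles, rose from 20.9, 21.5 and 20.3 CPM to 53.2, 55.0 and 44 CPM (log2 difference 1.28 ± 0.10, SE). Nop58, Nop56 and Fbl, of box C/D particles, rose from 62.3 to 141 CPM, from 75.3 to 139 CPM and from 42.2 to 86.1 CPM, with log2 differences of 1.18 ± 0.08, 0.88 ± 0.08 and 1.03 ± 0.14 (SE). Noc2l, chosen after its value was seen because its yeast relative binds that of Cebpz, rose from 65.0 to 108 CPM (log2 difference 0.74).

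**Figure D5:**
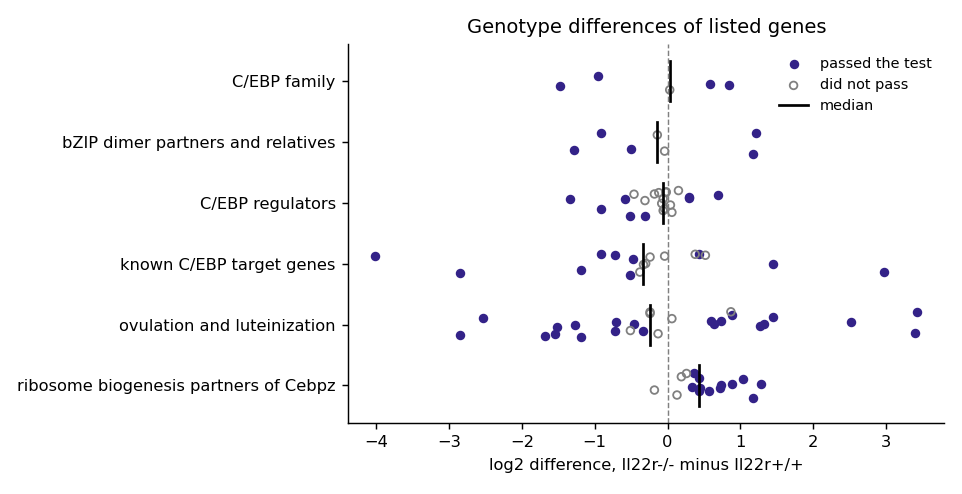
Log2 difference (Il22r-/- minus Il22r+/+) of each tested gene in the lists around the C/EBP family, 1 row per list, with called genes and uncalled genes marked apart and the median of each list as a line. Ribosome assembly genes lie mostly above 0 (median 0.44), and the ovulation and luteinization genes spread to both sides (median -0.24).

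Markers of some other cell types moved with the genotype. The summed endothelial markers (3.74 to 5.62 CPM in Il22r+/+ and 4.2 to 7.62 CPM in Il22r-/-) overlapped between the genotypes. So did the summed oocyte markers (0.355 to 0.934 and 0.262 to 2.08 CPM). The summed level of 13 macrophage markers, cells in which Cebpa and Cebpb are also well expressed, was 9.23, 9.06 and 11.6 CPM in Il22r+/+ and 60.5, 90 and 29.2 CPM in Il22r-/-. Lyz2, the most abundant of them in Il22r-/-, was at 2.74 and 29.4 CPM and Cd68 at 3.34 and 5.26 CPM. Of the 13, 9 passed the filter, some only through Il22r-/- (the Tyrobp reads were 0, 1 and 3 against 39, 62 and 13), so nothing is read from their calls. In the same order of Il22r-/- libraries Cebpa was at 53.6, 35.3 and 45.4 CPM, and its relation to the macrophage sum was not tested. The summed granulocyte markers stayed at or below 0.0584 CPM in Il22r+/+ and 0.959 CPM in Il22r-/-, with S100a9, Ly6g, Mpo, Elane, Ngp and Retnlg at 0 in all 6 libraries. The summed surface epithelium markers were 528 to 531 CPM in Il22r+/+ and 160 to 178 CPM in Il22r-/-. Of 8 members 6 fell (75% called, all lower, against 22.1% of all tested genes called lower). Krt7 and Krt19 had log2 differences of 0.98 and 0.67 and were not called. The summed stromal markers were 693 to 717 and 229 to 395 CPM. Of 7 members 1 rose (Col1a2, from 1.61 to 61.2 CPM), 2 fell (Dcn, from 242 to 10.6 CPM, and Col3a1, from 300 to 107 CPM) and 4 were not called (42.9% called against 45.7% of all tested genes). Col1a2 (49, 24 and 9 reads in Il22r+/+ against 844, 1860 and 615) passed the filter only through Il22r-/-, so nothing is read from its call. The summed smooth muscle markers were 267 to 322 and 357 to 577 CPM, most of it Acta2 (277 and 462 CPM). Of 6 members 4 rose, 1 fell (Tagln, from 6.34 to 3.24 CPM) and 1 was not called (83.3% called against 45.7% of all tested genes). Among those that rose, Myh11, Des and Actg2 passed the filter only through Il22r-/- (Actg2 reads were 11, 13 and 3 against 329, 417 and 170). Nothing is read from their calls. Of 5 adipocyte markers, Adipoq, Plin1, Lep and Cidec were near 0 (Adipoq had 2 and 1 reads over the 3 libraries of each genotype), while Fabp4 had 10 and 84 reads, as given above. Of 6 theca markers, Cyp17a1 (4 and 2 reads), Insl3 and Lhcgr were too low to test. Of the 3 tested, Ptch1 rose from 43 to 63.8 CPM, Aldh1a1 fell from 5120 to 4090 CPM and Nr2f2 was not called (66.7% called against 45.7% of all tested genes). The part of these cells in the differences of Cebpa, Cebpb, Cebpd and Cebpz was not tested.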

How the data were processed

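Total RNA, by label, was sequenced in 6 libraries, 3 of each genotype, grouped by the genotype in the labels. The authors deposited raw read counts for 55860 genes, counted with featureCounts 1.5.0-p3 on the mm10 build per the submitters' processing notes. For the aligner and the strand setting, nothing was given in the sources used here. The deposited FPKM, counts scaled by gene length and a library constant, came from the same counts, and that constant was 0.9365 to 1.0505 times the library total (its derivation is not stated).

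Counts were filtered with filterByExpr (15227 genes), scaled with TMM and tested with the robust quasi-likelihood fit of edgeR 4.0.16 in R 4.3.3, with genotype as the only term and Benjamini-Hochberg adjustment over all tested genes. The threshold for a call was an adjusted p of 0.05. The fit was tested on simulated counts. Far fewer genes differed in them than were called here, and the same variability was set for every gene. That test therefore does not show how the fit performs on data like these. Log2 differences are Il22r-/- minus Il22r+/+. The labels do not say whether libraries came from separate mice or cultures, so p-values measure only the spread between these libraries, which may be technical. Exact tests of 3 against 3 cannot give a p below 0.1 and were not used. Pairs of replicates differed by more than sampling noise, with a chi-square statistic per gene of 4.76 or more.

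The C/EBP members and the gene lists were chosen with earlier results of these data known. All members were named, and from each list up to 4 called genes in each direction with a mean of at least 5 CPM, by size of log2 difference, plus Stat3, Socs3, Ddit3, Atf4, Star and Ptgs2. The 3 genes nearest to each member were named too. Other names were chosen after their values were seen. Genes counted in a list are not all named. A symbol with more than 1 row was used only where 1 row alone held reads. Gene models came from GENCODE M21, which held 98.7% of the gene identifiers.

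Alternatives were DESeq2 1.42.0 (Wald test, or its size factors in edgeR), limma-voom (limma 3.58.1), a replicate block, the omission of each library, scaling to library size only, the low-count filter dropped or tightened (1 CPM in 3 libraries), and limma on log2 FPKM with a pseudocount of 1 or 0.1.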

Additional observations from a re-analysis of the deposited data

How the results depend on the processing

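The calls of Cebpa, Cebpb, Cebpd, Cebpg and Cebpz kept their side of the threshold in all 15 alternatives, and so did 24 of the 26 list genes named by rule, of which Atf4 was not called; Cop1 and Nr4a1 did not. The number of genes called lay between 5411 and 8243, against 6962. With a replicate block it was 6405, and the block changed no call of a member or named list gene; the same-numbered libraries did not deviate together (correlations of 0.026, -0.0406 and -0.0278), so the numbers were not taken as pairs. Scaling by library size alone moved the share of higher calls from 51.58% to 63.56% and the median log2 difference of all genes from 0.029 to 0.132. With the shortest coding transcript as gene length, added after seeing the data, the Cebpb share was 72.7% in Il22r+/+ and 46.4% in Il22r-/-; the annotated length sets this value. On the log2(FPKM + 1) scale Vcan differed by 1.75 and Btc by -0.83, since that pseudocount shrinks low genes. Depth limited Cebpe, at 7 reads in all.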

Other observations

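Some genes that C/EBPs are known to drive in other tissues were not called in these cells, and those given here were chosen after their values were seen. Pparg, the partner of C/EBP alpha in fat cell differentiation, stood at 86.3 ± 8.34 CPM in Il22r+/+ and 84.1 ± 14.7 CPM in Il22r-/- (SD, n = 3 each, log2 difference -0.04, 95% interval -0.33 to 0.25). Gadd45a, a stress-response gene, was almost level in Il22r+/+ at 44.8, 44.8 and 43.5 CPM. In Il22r-/- it was at 77.5, 62.4 and 33 CPM, 2 libraries above and 1 below all of Il22r+/+. Its log2 difference was 0.38 with a 95% interval of -0.32 to 1.09. Inha, which encodes the inhibin alpha subunit, was at 3200 ± 428 and 2600 ± 116 CPM (SD, n = 3 each, edgeR adjusted p = 0.0507).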
